A study of Mus musculus with 12 samples.

Results

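Smooth muscle and contractile genes were followed here through 10 members: the actins Acta2 and Actg2, the actin-binding proteins Tagln, Cnn1, Cnn2, Cnn3 and Cald1, the tropomyosins Tpm1 and Tpm2, and the myosin light chain Myl9. Every probe set whose platform annotation named exactly 1 gene, and that gene a member, was taken. This gave 27 of the 34945 probe sets that name 1 gene, for 10 of 18193 genes. Cnn3 had 6 probe sets, Cald1 5, Tpm1 and Tpm2 4 each, Acta2 3, and the other 5 genes 1 each. The probe set of a gene with the highest mean over all arrays is called its main probe set.

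Expression was measured on 12 Affymetrix mouse arrays, 3 in each of 4 groups. Primary cultures of whole bone marrow from female C57BL/6 mice, 6 weeks old, received 17βE (17β-estradiol, an estrogen) at 1 nM for 1 week, or none. From them came a fraction that the labels call c-kit+ stem cells and one that they call CD44+ stromal cells, and each fraction has a control group and an estradiol group. The labels do not say how the fractions were purified. Nor do they state whether the replicates of a group were grown or drawn separately, so each p-value reflects only the variation among these arrays, which may be technical.

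Smooth muscle cells shorten when myosin pulls on actin filaments, and most of these genes encode parts of that apparatus. Tropomyosins lie along the filament, calponins and caldesmon bind it and restrain myosin, and a regulatory light chain on myosin is switched on by phosphorylation. Serum response factor (SRF) with its myocardin family partners drives many of these genes by binding a DNA element called the CArG box. In bone marrow, stromal cells and fibroblasts grown in culture are known to make several of these proteins, and TGF-beta is a known inducer of them.

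The CArG box was looked for in the 250 bases before the start site in the RefSeq promoter table (GRCm38.p6), because SRF binding to it is the best known shared control of these genes. The motif is its own reverse complement as a pattern, so both strands were covered, and no other motif was searched. Of 32851 promoter windows of this length in the table, 1.47% held an exact match. Windows were at hand for 8 members (9 windows, 2 for Cald1), and 2 of the 9 held one, those of Myl9 and Cnn2. They are printed 5′ to 3′ on the plus strand, with the CArG box in capitals. The Myl9 stretch, chr2:156775214-156775407, stops at the gene's outermost annotated start, and its box begins at position -161 from the start site. The Cnn2 stretch is chr10:79988350-79988599, and its box begins at position -56.
Myl9: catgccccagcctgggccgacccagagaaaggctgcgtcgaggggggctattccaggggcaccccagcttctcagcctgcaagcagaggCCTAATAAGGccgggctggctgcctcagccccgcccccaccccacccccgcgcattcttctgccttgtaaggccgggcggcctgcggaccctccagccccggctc
Cnn2: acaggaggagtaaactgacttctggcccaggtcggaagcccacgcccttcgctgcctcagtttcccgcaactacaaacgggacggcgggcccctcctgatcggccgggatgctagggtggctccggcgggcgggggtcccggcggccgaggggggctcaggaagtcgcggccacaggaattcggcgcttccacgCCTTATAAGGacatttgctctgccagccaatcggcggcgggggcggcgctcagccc
Matches with 1 letter off among the 6 inner A or T letters, with CC and GG on either side intact, were found in 7.24% of all windows. A letter off in CC or GG was not searched. The Acta2 window held 2 on the minus strand, CCCTATATGG at position -84 and CCTTGTTTGG at -34 from the start site, and the Myl9 window held CCTTGTAAGG at -99. These are matches of letters in a fixed window, and an absent match says only that the letters are not in that window.

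The fractions were checked against their labels before the comparisons. Kit, the gene of the c-kit receptor, read between 3.54 and 4.22 on the log2 scale in all arrays with both of its probe sets. That is background: in these female mice 12 probe sets of Y-linked genes, leaving out 1 of a class that can match several transcripts, read up to 4.54. The 1 left out, of Sry, read up to 6.37. The value of 4.54 came from Zfy2, and the next highest probe set, of Kdm5d, read up to 3.98. All statements on background and all bounds below use the level of 4.54 and rest on this choice. The floor of a probe set can differ from this level, so the bounds hold only at 4.54 and are not measured limits. The c-kit+ label is therefore not borne out by Kit RNA, and the name is kept here only as the label of the fraction. Cd44 read between 11.8 and 12.5 in all arrays, and its difference between the fractions did not pass. A fixed list of 14 measured macrophage markers was high in both fractions. Its summed linear level was 93198 to 102894 in c-kit+ and 72446 to 88983 in CD44+ control arrays, without overlap, and 97124 to 109000 and 85228 to 96808 in estradiol arrays, again without overlap. Of its 14 genes Mrc1 (0.66, adjusted p = 0.046), Fcgr1 (0.71, adjusted p = 0.0294) and C1qb (0.55, adjusted p = 0.0381) were higher in c-kit+ cells in control cultures, and Mrc1 and C1qb in estradiol cultures (limma). Ptprc, the general marker of blood cells, read 12.7 to 13.6. A list of 21 mesenchymal markers (collagens, Pdgfra, Cxcl12 and others) had a summed level of 1625 to 3332 in c-kit+ arrays and 6598 to 19974 in CD44+ arrays. In this linear sum Fn1, Col1a2 and Bgn, its brightest genes in CD44+ cells, weigh most. Lepr, Thy1, Vcam1, Dcn, Lum, Nt5e and Eng passed in neither kind of culture, and Pdgfra not in control cultures (limma, adjusted p = 0.0785). The other genes of the list were lower in c-kit+ cells in both. In such bulk samples fewer cells of a type and less RNA per cell cannot be told apart.

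All 10 contractile genes were lower in c-kit+ than in CD44+ cells, in control and in estradiol cultures, on their main probe sets. The fitted differences ran from 2.06-fold (Cnn2) to 9.14-fold (Cnn3) without estradiol and from 2.73-fold (Cnn2) to 9.02-fold (Cnn3) with it. In control cultures 19 of 27 member probe sets passed, all lower in c-kit+ cells, where 1.65% of all probe sets passed in either direction and 1.22% lower (limma, Benjamini-Hochberg adjusted p under 0.05). In estradiol cultures 20 of 27 passed, all lower, against 1.9% of all in either direction and 1.7% lower. The median difference of the 27 probe sets was -1.89 on the log2 scale in control and -2.16 in estradiol cultures, where that of all probe sets was 0.0095 and 0.026. For every main probe set the 3 c-kit+ arrays lay below the 3 CD44+ arrays in both kinds of culture; of all probe sets, 7.92% in control and 7.42% in estradiol cultures had groups that did not overlap in this direction.

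**Figure D1:**
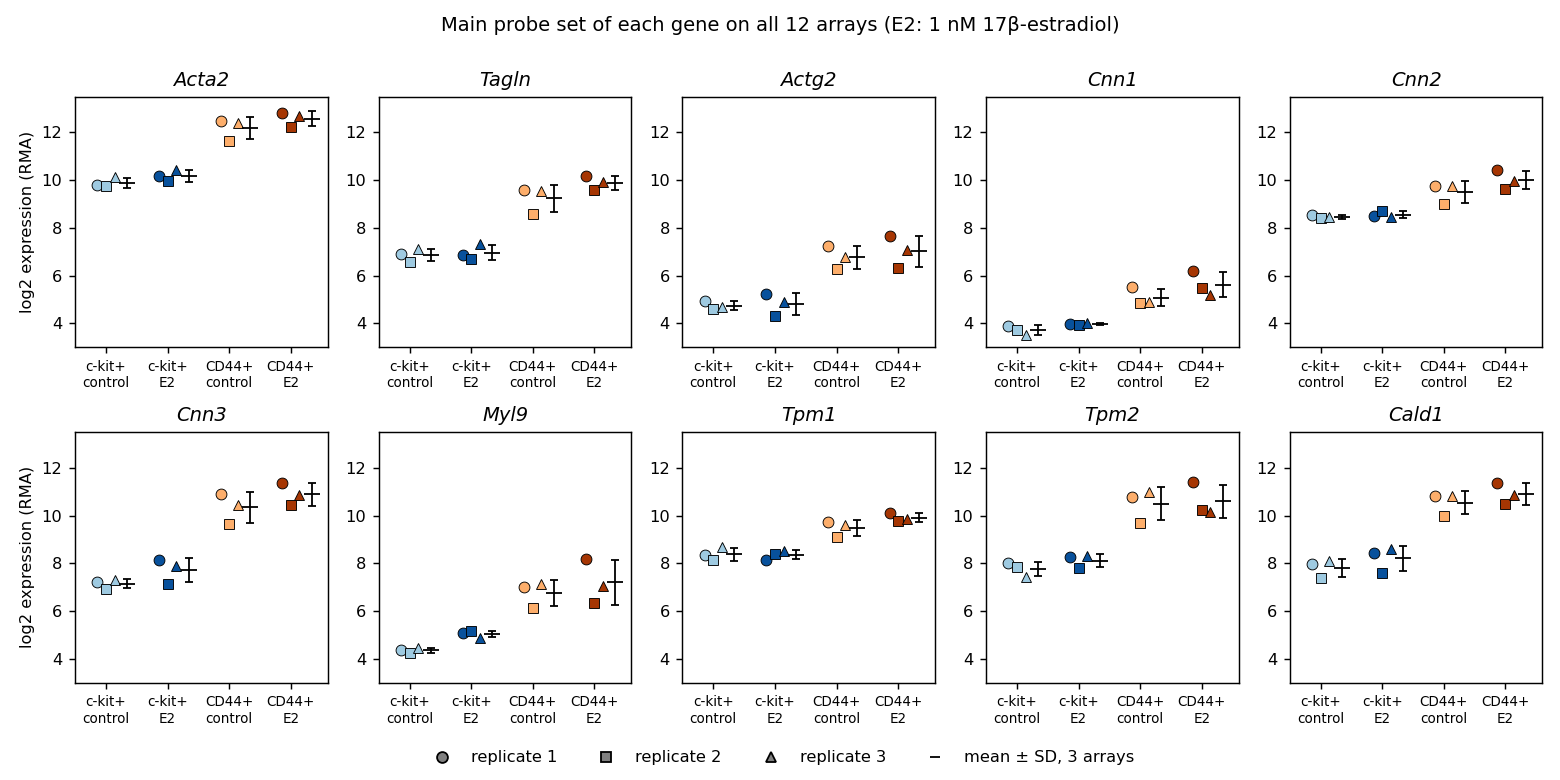
Log2 expression (y axis) of the main probe set of each of the 10 genes on all 12 arrays, by group (x axis); the symbol gives the replicate number and the bar the mean ± SD of 3 arrays. In each panel all CD44+ arrays lie above all c-kit+ arrays of the same treatment, and replicate 2 is the lowest CD44+ control array.

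The smooth muscle actin Acta2 (chr19:34240336-34255585), the usual marker of smooth muscle and myofibroblasts, was well above background in both fractions. It read 9.78, 9.74 and 10.13 in c-kit+ control arrays and 10.16, 9.95 and 10.44 in c-kit+ estradiol arrays. In CD44+ cells it read 12.49, 11.66 and 12.41 without and 12.83, 12.25 and 12.67 with estradiol. The highest c-kit+ array thus lay more than 1 log2 unit below the lowest CD44+ array. The difference was -2.30 in control cultures (SE 0.22, 4.93-fold, adjusted p = 0.000398) and -2.40 in estradiol cultures (SE 0.22, 5.27-fold, adjusted p = 0.000343). The main Acta2 probe set is of a class that can match transcripts of more than 1 gene, so a share of other actins cannot be told apart. The other 2 Acta2 probe sets read at or below background on all arrays and carry no information on it.

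Actg2 (chr6:83512909-83536251), the gamma actin of visceral smooth muscle, was much closer to background in c-kit+ cells. Its arrays there read 4.95, 4.59 and 4.69 without and 5.21, 4.30 and 4.92 with estradiol. CD44+ arrays read 7.26, 6.29 and 6.77 without and 7.65, 6.34 and 7.06 with it. The groups did not overlap, at a difference of -2.03 (SE 0.32, adjusted p = 0.0064) in control and -2.21 (SE 0.32, adjusted p = 0.00252) in estradiol cultures.

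Tagln (chr9:45929628-45936058) encodes transgelin, or SM22 alpha, an actin-binding protein and an early marker of smooth muscle. It read 6.91, 6.58 and 7.12 in c-kit+ control and 6.86, 6.71 and 7.34 in c-kit+ estradiol arrays. In CD44+ cells it read 9.60, 8.59 and 9.53 without estradiol and 10.18, 9.58 and 9.92 with it. In c-kit+ cells the estradiol and control arrays interleave, whereas in CD44+ cells only the lowest estradiol array lies below the highest control array. Between the fractions Tagln differed by -2.37 (SE 0.26, 5.18-fold, adjusted p = 0.000872) in control and by -2.92 (SE 0.26, 7.59-fold, adjusted p = 0.000343) in estradiol cultures.

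The calponins are actin-binding proteins that damp myosin activity. Cnn1 is the form of differentiated smooth muscle, while Cnn2 and Cnn3 are made in many cell types. Cnn1 (chr9:22099221-22109221) was at background in c-kit+ cells, at 3.91, 3.73 and 3.51 in control and 3.97, 3.93 and 4.01 in estradiol arrays. CD44+ arrays read 5.51, 4.84 and 4.90 without and 6.21, 5.49 and 5.18 with estradiol, all above the background level of 4.54. Since the c-kit+ side is only a bound, Cnn1 was at least 1.45-fold higher in CD44+ cells in control and at least 2.12-fold higher in estradiol cultures (adjusted p = 0.00972 and 0.00226 for the fitted differences of -1.36 and -1.66).

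Cnn2 (chr10:79988600-79995400) had the smallest fitted difference of the 10; Cnn1, known only as a bound, cannot be ranked against it. It read 8.56, 8.40 and 8.44 in c-kit+ control arrays and 9.76, 8.99 and 9.78 in CD44+ control arrays. With estradiol it read 8.51, 8.72 and 8.45 in c-kit+ and 10.42, 9.63 and 9.98 in CD44+ cells. The gap between the nearest arrays of the fractions in control cultures was thus narrow, and the difference of -1.04 (SE 0.22, adjusted p = 0.031) did not pass when array weights were used (-0.64, adjusted p = 0.134). It did not pass either in 7 of the 12 fits that left out 1 array, among them those without any 1 of the c-kit+ control arrays. In estradiol cultures Cnn2 differed by -1.45 (SE 0.22, adjusted p = 0.00294) and kept its call in every setting tried.

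Cnn3 (chr3:121426541-121458205) had the largest fitted difference; Myl9 in control cultures and Cnn1 are known only as bounds and cannot be ranked against it. Its main probe set read 7.23, 6.93 and 7.28 in c-kit+ control and 10.90, 9.66 and 10.46 in CD44+ control arrays. In estradiol cultures c-kit+ arrays read 8.12, 7.15 and 7.88 and CD44+ arrays 11.38, 10.44 and 10.86. The fractions differed by -3.19 (SE 0.32, adjusted p = 0.000521) and -3.17 (SE 0.32, adjusted p = 0.000478). Of the 6 Cnn3 probe sets 5 are of a class that can match several transcripts, so their level is uncertain; the plain probe set was also lower in c-kit+ cells, with log2 differences of -1.93 and -2.39 (adjusted p = 0.00426 and 0.000831). The dimmest of the 6, at a mean of 3.88 and near background in all groups, passed in estradiol cultures (adjusted p = 0.0268) and not in control cultures (adjusted p = 0.117); its size is not read.

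Myl9 (chr2:156775408-156781657) encodes a regulatory light chain of smooth muscle and nonmuscle myosin. It read 4.39, 4.25 and 4.46 in c-kit+ control arrays, at background, and 5.09, 5.15 and 4.89 in c-kit+ estradiol arrays, just above it. CD44+ arrays read 7.0, 6.15 and 7.13 without and 8.20, 6.35 and 7.05 with estradiol. Between the fractions it was at least 4.65-fold apart in control cultures (fitted -2.39, SE 0.36, adjusted p = 0.00514) and differed by -2.16 in estradiol cultures (SE 0.36, adjusted p = 0.00679). The c-kit+ estradiol arrays lay above the c-kit+ controls without overlap, with a fitted difference of 0.68 (95% interval -0.11 to 1.46) whose size is uncertain because the controls are at background; it did not pass (adjusted p = 0.9998).

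Of the tropomyosins, Tpm2 (chr4:43513726-43523583) differed by more than Tpm1 (chr9:67022590-67049672). Tpm2 read 8.01, 7.85 and 7.45 in c-kit+ control and 10.80, 9.70 and 10.98 in CD44+ control arrays. With estradiol it read 8.26, 7.79 and 8.29 in c-kit+ and 11.39, 10.22 and 10.17 in CD44+ cells. These groups lay -2.72 apart (SE 0.35, adjusted p = 0.00192) without and -2.48 apart (SE 0.35, adjusted p = 0.00234) with estradiol. Tpm1 read 8.34, 8.12 and 8.68 in c-kit+ control and 9.75, 9.09 and 9.63 in CD44+ control arrays. With estradiol it read 8.15, 8.41 and 8.52 in c-kit+ and 10.12, 9.78 and 9.84 in CD44+ cells. Its differences were -1.11 (SE 0.19, adjusted p = 0.00858) and -1.55 (SE 0.19, adjusted p = 0.000831), and the call in control cultures was lost with only the 6 arrays of the comparison (adjusted p = 0.0935) and without CD44+ control replicate 3 (adjusted p = 0.0553). Another Tpm1 probe set gave -1.20 and -1.75, and one more -0.68 and -0.77, which did not pass (adjusted p = 0.398 and 0.461). A Tpm2 probe set with a mean of 6.86 gave -2.66 in control cultures. One with a mean of 4.08 passed too, but its group means in control cultures lay below the background level, so no size is given for it, and the last, also at background, did not pass.

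Caldesmon, encoded by Cald1 (chr6:34598495-34775469), links actin, tropomyosin and myosin. Its main probe set read 7.97, 7.38 and 8.08 in c-kit+ control and 8.43, 7.60 and 8.59 in c-kit+ estradiol arrays. CD44+ arrays read 10.84, 9.97 and 10.81 without and 11.38, 10.47 and 10.85 with estradiol. The differences were -2.73 (SE 0.31, adjusted p = 0.00109) and -2.69 (SE 0.31, adjusted p = 0.000768). Like that of Acta2, this probe set is of a class that can match transcripts of more than 1 gene, so its level is uncertain. The next 2 probe sets were also lower in c-kit+ cells, 1 with a log2 difference of -1.89 in control cultures and the other at least 5.21-fold, since its c-kit+ control arrays were at background, while the last 2, with means of 4.92 and 4.24, did not pass. Over all 10 genes, 7 of 27 probe sets passed in neither kind of culture, and 5 of them read at or below background on all arrays.

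**Figure D2:**
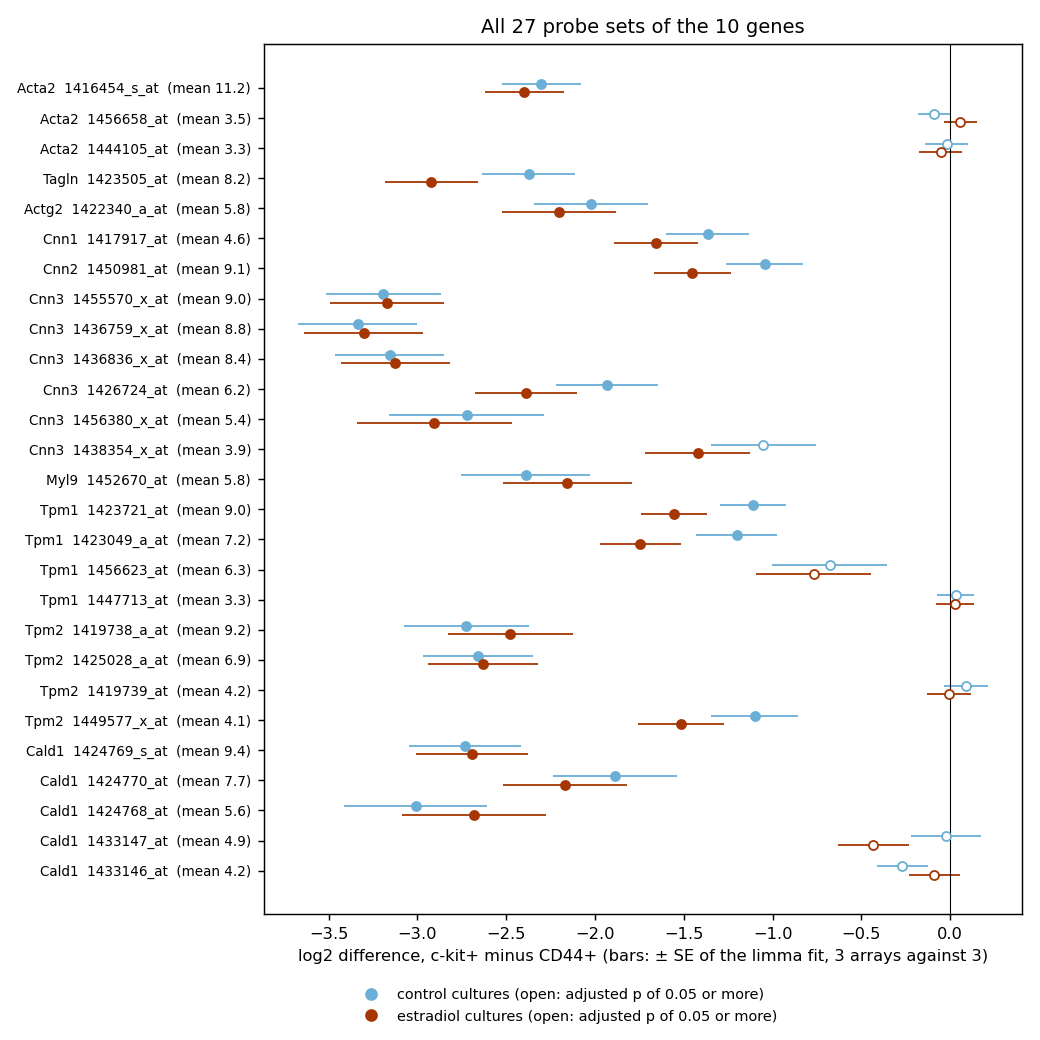
Log2 difference of c-kit+ minus CD44+ cells (x axis) for each of the 27 probe sets, with its mean level (y axis labels), in control and in estradiol cultures; bars are ± SE of the limma fit with 3 arrays against 3, and open symbols did not pass. The 7 probe sets that passed in neither kind of culture lie closest to 0 and have means from 3.30 to 6.29.

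A sign of RNA quality moved with the fraction as well. The Gapdh control signal at the 3′ end exceeds that at the 5′ end by more as RNA or its copies get shorter, and this gap was 4.23 to 6.17 log2 units in c-kit+ arrays and 2.83 to 4.31 in CD44+ arrays. For Actb it was 2.34 to 4.68 and 1.52 to 2.14. Its part in the lower contractile signals of c-kit+ arrays was not tested. Actb itself, the cytoplasmic beta actin, read 13.86 and 13.89 in control arrays of the c-kit+ and CD44+ fractions, a difference of -0.03 (adjusted p = 0.948). Both values lie near the top of the scale, where the highest value on any array was 14.81. What they could show of RNA quality was not tested.

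Estradiol changed no contractile gene past the threshold in either fraction. In c-kit+ cells 0 of 27 probe sets passed (limma), where 0.117% of all did, and 0 of 27 had an unadjusted p under 0.05, beside 4.8% of all. In CD44+ cells 0 of 27 passed, where 0.212% of all did, and 6 of 27 had an unadjusted p under 0.05, all higher with estradiol, beside 5.38% of all probe sets in either direction. The main probe sets of Tagln, Cnn1, Cnn2 and Tpm1 are among these 6.

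In CD44+ cells all 10 main probe sets had a mean above that of the control arrays, with a median difference of 0.43 on the log2 scale, where 52.5% of all probe sets lay above 0. Tagln had the largest value, 0.65 (95% interval 0.085 to 1.22, 1.57-fold, adjusted p = 0.857). Cnn3 was at 0.55 (interval -0.15 to 1.25), Cnn1 at 0.55 (0.040 to 1.05), Cnn2 at 0.50 (0.032 to 0.97) and Myl9 at 0.44 (-0.35 to 1.23). Tpm1 was at 0.42 (0.020 to 0.83) and was the only main probe set whose 3 estradiol arrays lay above all 3 controls, as they did for 6.89% of all probe sets. Acta2 was at 0.40 (-0.083 to 0.88), Cald1 at 0.36 (-0.32 to 1.04), Actg2 at 0.25 (-0.45 to 0.94) and Tpm2 at 0.10 (-0.67 to 0.87). The intervals of Tagln, Cnn1, Cnn3, Myl9 and Cald1 reach past 1, a 2-fold rise, and those of the other 5 genes do not.

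These values rest on few arrays. Without CD44+ control replicate 2 the median of the 10 fell to 0.17, with 9 of 10 above 0, and without CD44+ estradiol replicate 1 it fell to 0.26, with 7 of 10 above 0. With array weights, which give less weight to arrays that deviate over all probe sets, 7 of 27 member probe sets passed, all higher with estradiol, and so did 992 of all probe sets. Among them were the main probe sets of Tagln (1.11, adjusted p = 0.0168), Cnn2 (0.85), Acta2 (0.76) and Tpm1 (0.70). Replicate numbers were taken to pair the CD44+ arrays on the basis of correlations, and no label states a pairing. Between arrays of the same number 8 of 10 main probe sets were higher with estradiol in 3 of 3 pairs, and Myl9 and Tpm2 in 2 of 3. Of all probe sets 16.6% were higher in 3 of 3 pairs. Within groups the 10 genes varied together, at r of 0.635 to 0.907 with the mean of the other 9, so they are not 10 separate observations. With the replicate number as a block 0 of 27 passed, and Tagln had the smallest adjusted p of the main probe sets, 0.222.

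In c-kit+ cells 9 of 10 main probe sets lay above the control mean, with a median of 0.28, beside 54.2% of all probe sets above 0. Myl9 and Cnn1 had estradiol arrays all above the controls, as 5.22% of all probe sets did, but Cnn1 was below the background level on all 6 arrays and Myl9 on its 3 controls, so the size of these differences is not known. After Myl9 came Cnn3 with 0.57 (95% interval -0.13 to 1.27), Cald1 with 0.40 (-0.29 to 1.08) and Tpm2 with 0.35 (-0.42 to 1.11). Acta2 was at 0.30 (-0.18 to 0.78), Cnn1 at 0.26 (-0.25 to 0.76), Tagln at 0.10 (-0.47 to 0.67) and Cnn2 at 0.09 (-0.38 to 0.56). Actg2 was at 0.07 (-0.63 to 0.76) and Tpm1 at -0.02 (-0.42 to 0.38). The difference of the estradiol effects between the fractions was called for 0 of 27 member probe sets and for 0 of all (limma), a share of 0%, with 701 of all at an unadjusted p under 0.05. Over the 27 it ran from -0.55 for Tagln to 0.33.

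**Figure D3:**
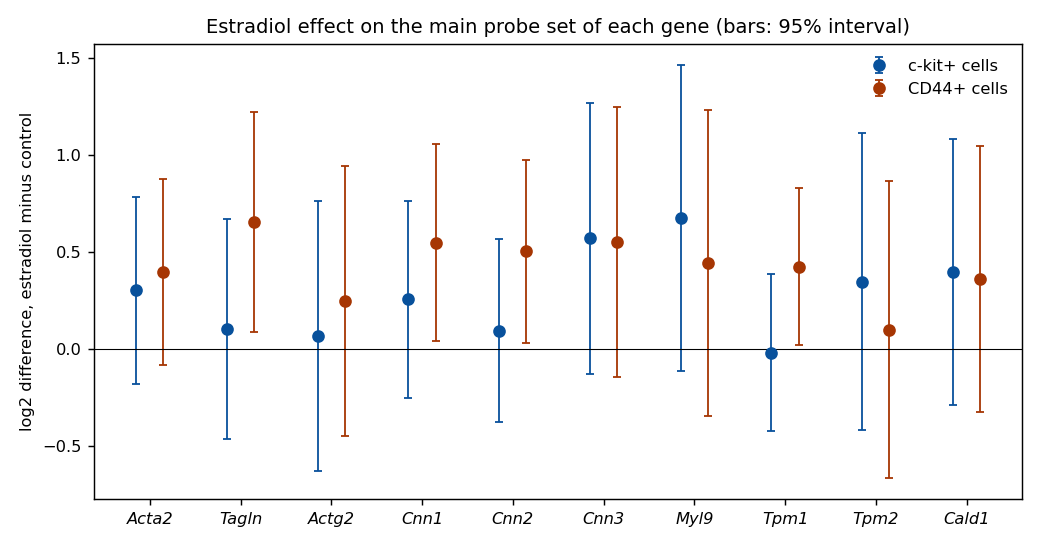
Log2 difference of estradiol minus control arrays (y axis) for the main probe set of each gene (x axis) in c-kit+ and CD44+ cells; bars are the 95% intervals of the limma fit, 3 arrays against 3. All 10 values in CD44+ cells lie above 0, and the intervals of Tagln, Cnn1, Cnn2 and Tpm1 there stay above 0 before adjustment over all probe sets.

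Set in order, the group means were lowest in c-kit+ control and highest in CD44+ estradiol arrays, with c-kit+ estradiol and then CD44+ control between them, for Acta2, Tagln, Actg2, Cnn2, Cnn3, Tpm2 and Cald1. For Cnn1 both c-kit+ groups, and for Myl9 the c-kit+ controls, lay below the background level, so the order of their c-kit+ groups is not given. For Tpm1 the c-kit+ groups stood the other way round, at 8.38 ± 0.28 (SD, n = 3) without and 8.36 ± 0.19 with estradiol. The step between the fractions passed in each kind of culture; neither step between treatments passed for any gene.

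Within groups the 10 genes varied more than most, and in some CD44+ arrays they lay on 1 side of the group mean. Their within-group SD ran from 0.26 (Tpm1) to 0.54 (Myl9) on the main probe sets, at or above the 84.4th percentile of all probe sets, whose median was 0.16. In CD44+ control replicate 2 all 10 lay below the mean of their group, by 0.55 on average, and in CD44+ estradiol replicate 2 all 10 lay below it, by 0.41. In CD44+ control replicate 1 and CD44+ estradiol replicate 1 all 10 lay above, by 0.35 and 0.51. The other arrays were split, from 2 below and 8 above in CD44+ control replicate 3 to 7 below and 3 above in CD44+ estradiol replicate 3, and in c-kit+ arrays between 2 and 8 lay below. The mesenchymal list deviated by -0.51 and -0.47 in the first pair of these arrays and by 0.11 and 0.37 in the second. In CD44+ control replicate 3 it deviated by 0.40, beside 0.20 for the 10 genes. In CD44+ estradiol replicate 3 the signs were opposite, 0.10 for the list and -0.11 for the 10 genes. The macrophage list stayed between -0.14 and 0.11 in all arrays. The part of a varying share of mesenchymal cells in these deviations was not tested.

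**Figure D4:**
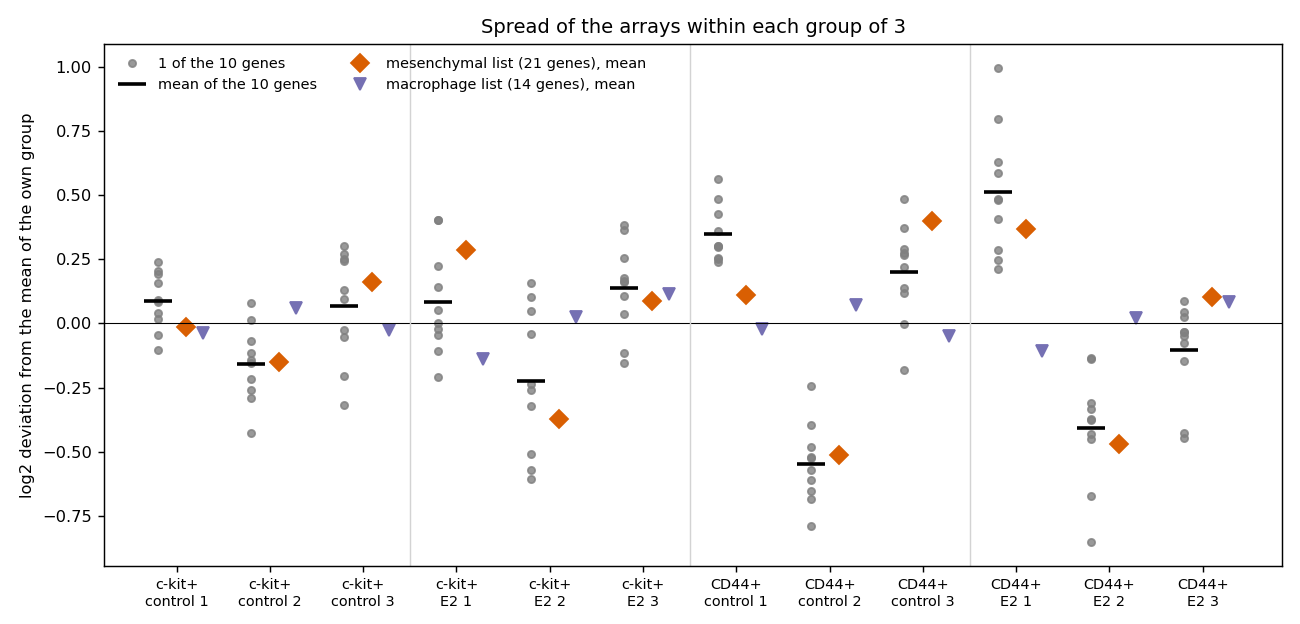
Log2 deviation of each array from the mean of its own group of 3 (y axis), by array (x axis): points are the 10 genes, bars their mean, diamonds the mean of 21 mesenchymal markers and triangles that of 14 macrophage markers. Points and diamonds fall together in replicate 2 of both CD44+ groups, at means of -0.55 and -0.41 for the 10 genes, and triangles stay near 0. In CD44+ estradiol replicate 3 the bar lies at -0.11 and the diamond at 0.10.

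Over the 12 arrays each gene's main probe set correlated with the mean of the other 9 at r between 0.958 (Cnn1) and 0.993 (Cnn3). After subtracting group means, r ran from 0.635 (Cnn1) to 0.907 (Cnn3). Among 2851 other genes whose main probe set spanned at least 1 log2 unit, those most like the mean of the 10 were Prrx1 (r = 0.995), Serpinh1 (0.994), Rhobtb3 (0.994), Snai2 (0.993), Fscn1 (0.993), Timp1 (0.992), Col5a1 (0.992) and Nid1 (0.992). Prrx1 and Snai2 encode transcription factors of mesenchymal cells, Serpinh1 a collagen chaperone, Fscn1 an actin-bundling protein, Timp1 an inhibitor of metalloproteinases, and Col5a1 and Nid1 matrix proteins. Within groups these 8 correlated with the mean of the 10 at r between 0.894 and 0.961. The arrays share the large step between the fractions, so these r values describe the same arrays and are no measure of a link.

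Other genes of the contractile apparatus and of the SRF pathway followed only in part. Of 36 measured on a list beside the 10 genes, 5 were lower in c-kit+ cells in control and 7 in estradiol cultures, none was higher, and the median difference was -0.26 and -0.21. Of all probe sets, 1.22% passed as lower in control and 1.7% in estradiol cultures. The 5 were Mylk, the kinase of the myosin light chain (-1.93, adjusted p = 0.0171), Myh10, a nonmuscle myosin heavy chain (-2.60, adjusted p = 0.00031), Fhl1 (-2.14), the adhesion protein vinculin, Vcl (-1.23), and Pdlim7 (-0.89). In estradiol cultures Csrp2 (-1.57) and Fhl2 (-1.11) passed too. Srf itself read 8.47 in c-kit+ and 8.34 in CD44+ control arrays (difference 0.12, adjusted p = 0.835). Its partner Myocd was near background at 4.09 and 4.22, and Mrtfa differed by -0.18 (adjusted p = 0.614). Estradiol moved 0 of 36 past the threshold in either fraction; the smallest p belonged to Myl6 in c-kit+ cells (-0.47, adjusted p = 0.58).

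Myh11, the heavy chain of smooth muscle myosin and its most specific marker, stayed at background in all groups, with means from 3.62 to 3.78. Des, which encodes desmin, read 5.0 to 5.15 and Rgs5, a pericyte marker, 3.97 to 4.14, with no called difference between the fractions. Of 11 measured pericyte and smooth muscle markers, Pdgfrb, the receptor for PDGF-B, passed in both kinds of culture (-2.87 and -2.91) and no other did. The summed level of this list was 260 to 327 in c-kit+ and 382 to 723 in CD44+ arrays. It is a linear sum that includes Pdgfrb, the highest gene of the list in CD44+ cells and one that stands on the mesenchymal list too. Without and with estradiol, Pdgfrb had means of 4.29 and 5.05 in c-kit+ and 7.16 and 7.96 in CD44+ cells. The mean of 4.29 lies below the background level, so the size of -2.87 is uncertain. Lmod1, a leiomodin of smooth muscle, read 5.23 in c-kit+ and 5.47 in CD44+ control arrays (difference -0.25, adjusted p = 0.463) and differed by -0.47 in estradiol cultures, without overlap (adjusted p = 0.125). Myh11, Des and Lmod1 stand on the contractile list as well. Lists of skeletal muscle (11 genes), endothelial (12) and megakaryocyte markers (12) had 0 genes called between the fractions in either kind of culture (limma). A list of 9 measured neutrophil markers had a summed level of 289 to 387 in c-kit+ and 417 to 492 in CD44+ control arrays. With estradiol it was 352 to 370 and 387 to 556, again without overlap. For 9 mast cell markers the summed levels of the fractions overlapped in both kinds of culture. Of 13 measured stem and progenitor markers, Cd34 was lower in c-kit+ cells with estradiol (-1.43, adjusted p = 0.045) but did not pass without it (-1.28, adjusted p = 0.0785). Of 7 measured adipocyte markers, Fabp4 was higher in c-kit+ control cultures (1.17, adjusted p = 0.0321) but did not pass with estradiol (0.68, adjusted p = 0.31). No other gene of either list passed. The macrophage list had 3 of 14 genes called in control and 2 of 14 in estradiol cultures, all higher in c-kit+ cells. Of all probe sets, 0.429% and 0.203% were called higher there. The contractile genes were lower in these cells, and the part of the macrophage list in that difference was not tested.

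The counts in this paragraph stand beside 1.22% of all probe sets called lower in c-kit+ cells in control and 1.7% in estradiol cultures. Of 23 measured genes of TGF-beta signalling and its targets, 10 were lower in c-kit+ cells in each kind of culture and none was higher. Among them were the ligands Tgfb2 (-0.89 and -1.69) and Tgfb3 (-1.75 and -2.19), the coreceptor Tgfbr3 (-1.72 and -2.10), the latent TGF-beta binding protein Ltbp1 (-0.89 and -1.44) and the targets Ccn2 (-2.55 and -2.62), Ccn1 (-1.72 and -1.85) and Pmepa1 (-1.36 and -1.52). In c-kit+ cells Tgfb2 had means of 4.26 without and 4.30 with estradiol, below the background level, so the size of its differences is uncertain. In each c-kit+ group 2 of the 23 genes read at or below background on all arrays. Tgfb1 differed by -0.62 and 0.32 and did not pass. The mesenchymal list, which shares Col1a1, Fn1 and Eng with this one, had 13 of 21 genes lower in control and 14 of 21 in estradiol cultures, with medians of -2.08 and -2.24, against -2.34 and -2.30 for the 10 main contractile probe sets. Its median estradiol difference in CD44+ cells was 0.35, with 19 of 21 above 0, beside 0.43 and 10 of 10 for the contractile genes; the part of mesenchymal cells in that value was not tested.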

How the data were processed

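The authors deposited log2 values from RMA (version not given in the sources used here), per the submitters' processing notes. RMA corrects background, quantile-normalizes and summarises probe sets, so levels of different probe sets are not comparable and low signals are compressed. Values of all arrays ran from 2.47 to 14.81, with array medians of 4.75 to 4.84; the number of arrays limits the precision. Values entered unfiltered. Of 45101 probe sets, 64 controls, 932 naming several genes and 9160 unnamed here were left out.

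limma 3.58.1 (R 4.3.3) fitted 1 mean per group over all 12 arrays, with Benjamini-Hochberg adjustment over 34945 probe sets and a threshold of 0.05; it was tested on simulated data. Adjusted p-values are from this fit unless a setting is named. All members are named. Other genes named include those called on the contractile list, some of those called on the TGF-beta list, some next by p, and the 8 most alike by r. Further genes, among them Srf, Myocd, Mrtfa, Actb, Tgfb1 and cell type markers, were named for what they encode and not by p. Members and lists were chosen with earlier results of these data known, and the background level after its values were seen.

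Replicate numbers were taken to pair arrays where every correlation of same-numbered deviations from group means was above 0.1: CD44+ control and estradiol arrays (0.26, 0.30 and 0.30) and estradiol arrays of both fractions (0.39, 0.13 and 0.29) met this; the c-kit+ pair of groups (0.32, 0.016 and 0.22) and the controls of both fractions (0.14, 0.090 and -0.24) did not. Promoter sequences and gene positions are from RefSeq (GRCm38.p6). Tagln and Actg2 promoters were not used here.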

Additional observations from a re-analysis of the deposited data

How the results depend on the processing

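The lower signals in c-kit+ cells kept their direction for every main probe set under all settings tried, and in estradiol cultures all kept their calls. In control cultures calls were lost 8 times in fits that left out 1 array (Cnn2 and Tpm1) and 7 times in other settings. With 1 probe set per gene, or all of a gene's probe sets averaged, 10 of 10 genes passed in both comparisons of the fractions. Leaving out each array in turn, 14 to 20 member probe sets passed in control (258 to 586 of all) and 19 to 20 in estradiol cultures (359 to 857 of all). The replicate block over 12 arrays changed no count of member calls (19, 20, 0, 0 and 0); added after the data were seen, the block with only the 6 arrays of the comparison left 8 in control cultures (111 of all probe sets), with Cnn1 (adjusted p = 0.0524), Cnn2 (0.166), Tpm1 (0.0829) and Tpm2 (0.0819) not passing. Without the block, the arrays of the comparison alone lost Cnn2 (0.118) and Tpm1 (0.0935). For estradiol in CD44+ cells array weights gave 7 calls. No other setting gave a member call for estradiol. Directions that turned belonged to values that had not passed. For estradiol in c-kit+ cells these were Tpm1 with gene means (0.018) and array weights (0.047), and Actg2 with weights (-0.068); in CD44+ cells, Tpm2 with quantile normalization (-0.060). For the difference of the effects they were, with gene means, Acta2 (0.0050), Cnn3 (-0.15), Tpm2 (-0.060) and Cald1 (-0.030); with quantile normalization, Acta2 (0.065); with median centring, Cnn3 (-0.0086); with weights, Cnn3 (-0.53), Myl9 (-0.092), Tpm2 (-0.48) and Cald1 (-0.44). Leaving out arrays, the effect in c-kit+ cells ran from -0.080 to 0.23 (Tagln), -0.14 to 0.32 (Actg2) and -0.15 to 0.13 (Tpm1). In CD44+ cells it ran from -0.30 to 0.34 (Tpm2), -0.069 to 0.58 (Actg2) and -0.058 to 0.87 (Myl9). The difference of the effects ran from -0.26 to 0.36 (Cnn3), -0.18 to 0.34 (Cald1), -0.26 to 0.17 (Acta2), -0.52 to 0.13 (Actg2), -0.51 to 0.00092 (Cnn1) and -0.19 to 0.73 (Myl9). The causes were not tested.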
